A study of Homo sapiens with 6 samples.

Results

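A set of 9 miRNA names on the array, here called the fragment-like names, stands for short RNAs whose mature sequences overlap or resemble pieces of other abundant RNAs of the cell, namely tRNA, rRNA and U2 snRNA. They are hsa-miR-1246, hsa-miR-1260a, hsa-miR-1260b, hsa-miR-3648, hsa-miR-4454, hsa-miR-6724-5p, hsa-miR-663a, hsa-miR-7975 and hsa-miR-7977, written below without the prefix for human. Probes were taken by name from the scanner output, and 9 of the 2555 human miRNA probes were members, each with 1 spot per array. They were measured in HuCCT1, an established human cholangiocarcinoma (CCA) cell line, on 6 arrays of 1 colour. The 3 control arrays held RNA of cells given 0 ng/ml TGF-β, and the other 3 arrays held RNA of cells given 10 ng/ml TGF-β, a cytokine that induces epithelial-mesenchymal transition. Both groups were harvested at 72 h, and total RNA was labelled with Cy5. All arrays come from 1 cell line with no genetic change, and the labels do not say whether the arrays of a group came from separate cultures, so p-values measure the spread between these arrays, which may be technical.

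A typical miRNA is cut by Drosha and Dicer from a hairpin and loaded into an Argonaute protein, and its seed (bases 2 to 8) pairs with target mRNAs. Cells also hold stable pieces of tRNA, rRNA and snRNA of the same length, and some of these were entered in miRNA catalogues from sequencing reads. Mature tRNAs carry the bases CCA at their 3′ end, added after transcription, so that a small RNA ending in CCA has the form of a tRNA 3′ end. A probe is made to the catalogue sequence, and its spot does not tell a processed miRNA from a fragment of a longer RNA or from that longer RNA itself. Which of these RNAs bound the probes was not tested, since the sequences of tRNA, rRNA and snRNA were not used here.

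The mature sequences from RefSeq (GRCh38.p14) are shown 5′ to 3′, with the seed in capitals, because the members fall into sets by their ends and seeds. Of the 2555 probe names, 2235 (87.5%) matched a RefSeq mature sequence, and all 9 members did. The first 5 sequences are called the members sharing a 3′ end, and the last 4 lack it. Among the 5, miR-1260b carries the shared bases followed by 1 more base.

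miR-4454: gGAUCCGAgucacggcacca

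miR-7975: aUCCUAGUcacggcacca

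miR-7977: uUCCCAGCcaacgcacca

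miR-1260a: aUCCCACCucugccacca

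miR-1260b: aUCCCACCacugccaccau

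miR-1246: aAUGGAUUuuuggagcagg

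miR-3648: aGCCGCGGggaucgccgaggg

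miR-6724-5p: cUGGGCCCgcggcgggcgugggg

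miR-663a: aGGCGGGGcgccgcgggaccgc

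MiR-4454, miR-7975, miR-7977 and miR-1260a end in CACCA, and miR-1260b ends in the same bases followed by U. Of 2370 mature names in RefSeq, 45 (1.90%) end in CCA and 6 (0.253%) in CACCA, and 4 of these 6 are members. The other two were on the array and were not expressed, a word used here for a probe detected throughout at least 1 group, that is on its 3 arrays. Of 39 other probes ending in CCA, 4 (10.3%) were expressed (miR-4484, miR-4730, miR-1913 and miR-4261), against 12.6% of all human probes. The members are short, with 6 of 9 at 20 bases or fewer against 15.4% of all mature names, and 3 of them at 18 bases. The remaining 4 members differ among themselves in composition. GC content was 81.0% in miR-3648, 91.3% in miR-6724-5p and 90.9% in miR-663a, the names linked to rRNA precursors, and 42.1% in miR-1246, the name linked to U2 snRNA, against a median of 52.2% over all mature names.

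Both close pairs differ by 1 base within the compared stretch. Counting from 1 at the 5′ end, miR-1260a and miR-1260b differ by U9A, are identical at 17 of 18 positions and share the seed, and miR-1260b has 1 base more at its 3′ end. Aligned at their 3′ ends, miR-4454 and miR-7975 are identical at 17 of 18 positions, differ by G7U (position in miR-4454) and share the 13-base run agucacggcacca. MiR-4454 has 2 more bases at its 5′ end, so the seeds of this pair differ. Probes to such close sequences can bind each other's target, and the values of a pair are not independent of each other.

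The annotated loci of the members lie outside annotated rRNA, tRNA and snRNA genes (0 of 9 overlap one in GRCh38.p14). MiR-4454 is at chr4:163093607-163093626 on the minus strand, miR-7975 at chr19:55123225-55123242 on the minus strand and miR-7977 at chr3:176515103-176515120 on the plus strand. MiR-1260a (chr14:77266231-77266248, plus strand) lies within the span of NGB, and miR-1260b (chr11:96341447-96341465, plus strand) within that of MAML2. MiR-1246 is at chr2:176601024-176601042 on the minus strand, miR-3648 at chr21:8987026-8987046 on the plus strand, and miR-663a at chr20:26208243-26208264 on the minus strand, within its host transcript MIR663AHG. MiR-6724-5p has 2 copies on the plus strand, at chr21:8249515-8249537 and chr21:8432540-8432562, and the second lies 660 bp from RNA45SN1, a gene of the 45S rRNA precursor.

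All 9 members were detected on all 6 arrays, where detection required a brightness exceeding the blank-spot mean by 2 SD (229 blank spots per array). Over all human probes, 292 of 2555 were detected on every array. Ranked by spot brightness among the 2555 probes, miR-4454 was first and miR-7975 second on every array. MiR-7977 had a median rank of 3.5 (range 3 to 4) and miR-1260b of 7 (range 6 to 8), so that 4 of the 10 brightest probes were members. The rank of miR-1260b depended on the background. With local background subtracted its median rank was 2539, and that background exceeded its spot on 4 of 6 arrays. MiR-4454, miR-7975 and miR-7977 kept median ranks of 1, 2 and 3.5 with local background. Yet that background was 94.4%, 92.9% and 92.2% of the miR-4454 spot on control arrays 1 and 2 and TGF-β array 2. On the other arrays it was 17.8% to 33.1%. It exceeded the spot of miR-7977 on 1 of 6 arrays, of miR-1260a on 2 and of miR-1246 on 1. The subtracted signals of these members thus depended on the background too. For comparison, miR-21-5p, an abundant oncogenic miRNA of epithelial cancers, had a median rank of 6 (range 5 to 7). MiR-1260a had a median rank of 30 (range 18 to 48) and miR-3648 of 44.5 (range 40 to 52). The dimmest members were miR-663a at 93.5 (range 86 to 112), miR-6724-5p at 97.5 (range 92 to 108) and miR-1246 at 98.5 (range 69 to 125). Brightness depends on how well each probe binds as well as on the amount of RNA, so these ranks order spots and not RNA molecules.

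**Figure D1:**
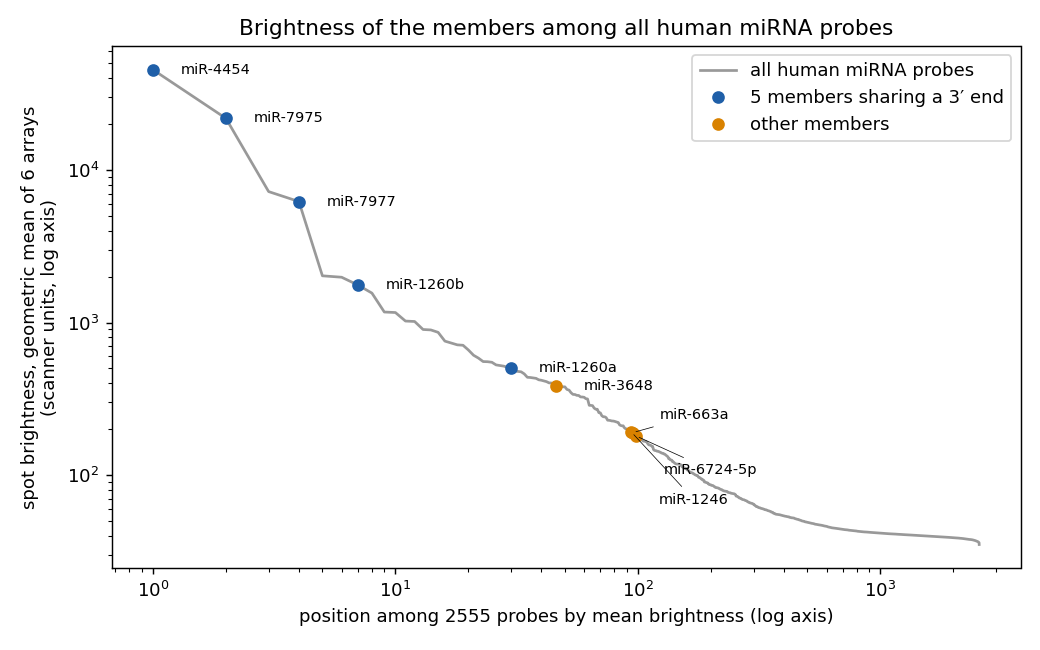
Mean spot brightness over the 6 arrays (geometric mean, scanner units, log axis) of every human miRNA probe against its position in that order (log axis), with the 9 members as points. The members sharing a 3′ end hold the first and second positions and lie on the steep part of the curve, and the other 4 members lie on its middle part.

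The order of the brighter members held on every array. Within an array, the blank-subtracted signal of miR-4454 was above that of miR-7975 by 1.06 ± 0.13 on the log2 scale (SD, n = 6), miR-7975 was above miR-7977 by 1.82 ± 0.18, miR-7977 was above miR-1260b by 1.85 ± 0.26, and miR-1260b was above miR-1260a by 1.92 ± 0.12, each in 6 of 6 arrays. MiR-3648 was above miR-663a by 1.25 ± 0.17 in 6 of 6 arrays. The neighbours miR-1260a and miR-3648 (0.44 ± 0.51, 4 of 6 arrays), miR-663a and miR-6724-5p (0.09 ± 0.11, 4 of 6 arrays) and miR-6724-5p and miR-1246 (-0.10 ± 0.37, 3 of 6 arrays) did not differ in brightness beyond their spread.

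A few members supplied a large part of the light, over 50% of it on 4 of 6 arrays. The 9 members gave 64.6%, 57.4% and 67.8% of the summed signal of all detected probes in control replicates 1, 2 and 3. In TGF-β replicates 1, 2 and 3 they gave 47.6%, 44.0% and 64.9%. Values below follow the same order of replicates. The share was 63.3% ± 5.35 (SD, n = 3) in the controls and 52.2% ± 11.2 with TGF-β, and the share on TGF-β array 3 lay within the control range. MiR-4454 alone gave 39.1%, 33.3% and 39.4% in controls, against 28.0%, 26.7% and 39.1% after TGF-β. MiR-7975 gave 18.7%, 17.6% and 20.7% in controls, against 13.3%, 11.2% and 18.0% after TGF-β. The members without the shared 3′ end together gave 0.349% to 0.873%.

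Before scaling, the summed signal of the 9 members was 75777 ± 7401 in controls and 77119 ± 3793 with TGF-β (SD, n = 3), in scanner units after subtraction of the blank mean. The summed signal of all other detected probes was 45221 ± 15209 in controls and 73952 ± 26437 with TGF-β. On TGF-β arrays 1 and 2, where the shares were lowest, the members summed to 76945 and 73417 and the other detected probes to 84678 and 93341. The member sums lay within the control range of 70741 to 84275, and the sums of the other probes were the highest of the 6 arrays. MiR-7975 had its lowest unscaled signal on TGF-β array 2, at 18599 against 20457 to 25807 in controls.

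**Figure D2:**
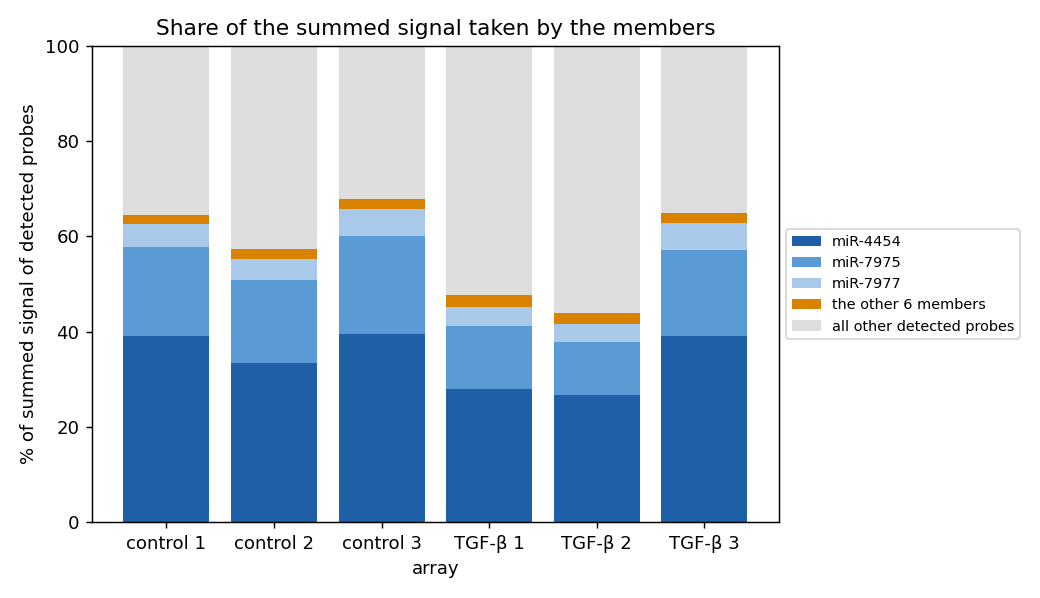
Share of the summed signal of all detected probes (percent, stacked bars from 0) given by miR-4454, miR-7975, miR-7977 and the other 6 members on each of the 6 arrays. The bars of TGF-β arrays 1 and 2 are the lowest, at 47.6% and 44.0%, and TGF-β array 3 reaches 64.9%.

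The arrays differed in general brightness. The median unscaled signal of the 292 common probes, those detected on every array, was 49.0, 79.2 and 42.6 in controls, against 103.7, 117.2 and 51.7 after TGF-β, a 2.75-fold range. The gain slope recorded by the scanner was 0.187, 0.228 and 0.191 in controls, against 0.275, 0.269 and 0.205 after TGF-β. It was highest on control array 2 and TGF-β arrays 1 and 2, the arrays with the highest medians. The part of this slope in the brightness was not tested. MiR-4454 did not follow the median of the common probes. Its raw spot brightness was 42882, 49035 and 42086 in controls, against 45284, 44599 and 48835 after TGF-β, and its unscaled signal spanned 1.16-fold over the 6 arrays, the narrowest of the 292 probes. MiR-7977 (1.37-fold) and miR-7975 (1.39-fold) came next in this order, and miR-1260b and miR-1260a, both at 1.58-fold, were at positions 9 and 10. The other 4 members spanned 3.37-fold for miR-6724-5p (position 148 of 292), 3.53-fold for miR-3648 (162), 4.04-fold for miR-663a (212) and 5.79-fold for miR-1246 (275).

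The span was also set against brightness. When the 292 common probes were split by brightness into 4 classes of 73, from the dimmest class to the brightest the median span was 3.89-fold, 3.72-fold, 3.20-fold and 3.06-fold and the narrowest span was 1.41-fold, 1.40-fold and 1.16-fold in the 3 brighter classes. Between miR-7975 and miR-1260b in this order came 5 probes outside the members (miR-6765-3p, miR-7114-5p, miR-4664-5p, miR-4758-3p and miR-5100), at 1.40-fold to 1.51-fold. A class of 73 probes does not describe the few brightest spots, and the part of brightness in the narrow spans was not tested. The highest spot of any array read 49035, and whether the brightest spots were at the limit of the scanner or of the probe was not tested.

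**Figure D3:**
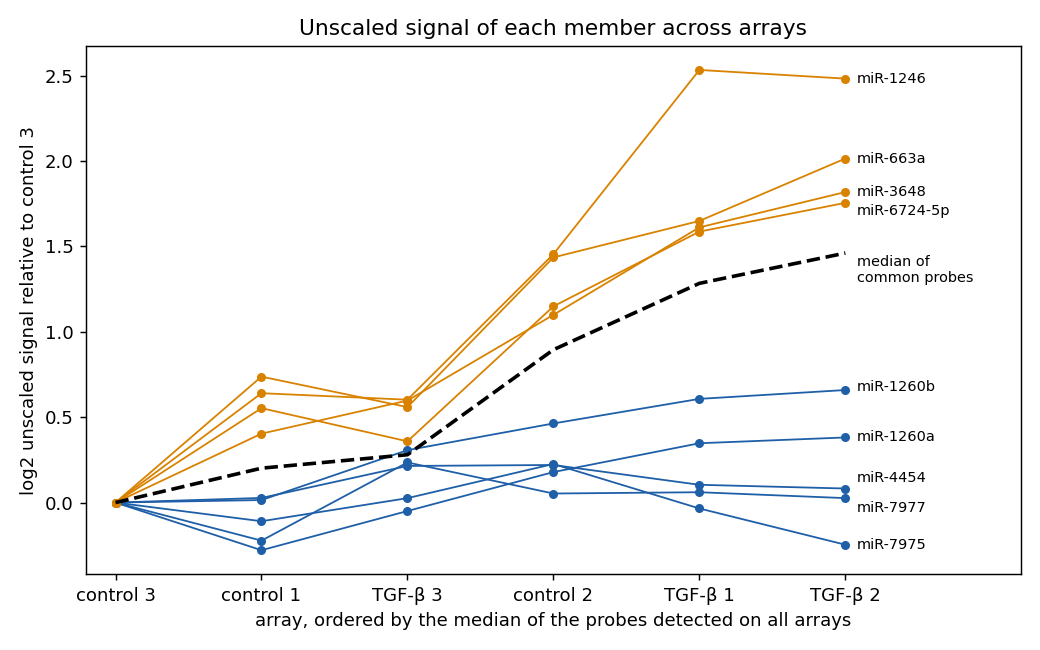
Unscaled signal of each member on the 6 arrays (blank mean subtracted, as log2 relative to control array 3), with the arrays in order of their common-probe median, which is the dashed line. The lines of miR-4454, miR-7975 and miR-7977 are nearly flat, spanning 1.16-fold to 1.39-fold, while the common-probe median spans 2.75-fold.

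Control cells were compared with TGF-β-treated cells to ask which miRNAs change during the transition. For this, signals were scaled to a common-probe median of 25 on every array, and log2 signals were compared with limma over the 323 expressed miRNAs. No member passed an adjusted p of 0.05 (limma with Benjamini-Hochberg adjustment, 0 of 9), against 0% of all expressed miRNAs (0 of 323). Without adjustment, 21 expressed miRNAs (6.50%) and no member had a p under 0.05, and the simpler 2-group test named in the study's methods passed 1 miRNA, miR-4521, after adjustment. The signal of all 5 members sharing a 3′ end was lower on average with TGF-β and that of the other 4 higher, in a background where 48.9% of expressed miRNAs had a log2 change below 0. The median log2 change was -0.48 over the 5, 0.12 over the 4 and -0.28 over all 9, against 0.01 over the expressed miRNAs. Probes outside the members with narrow unscaled spans also had lower scaled signals. Without scaling, the median log2 change of the expressed miRNAs was 0.66, so a nearly flat signal becomes lower once scaled. As these probes were chosen by narrow span, they are no independent comparison for the members. The log2 changes of these probes were -0.91 for miR-5100, -0.87 for miR-4758-3p, -0.75 for miR-6765-3p and -0.70 for miR-7114-5p. MiR-4664-5p, also narrow in span, is not included here.

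The scaled signal of miR-7975, the member with the lowest log2 change, was 10442, 8145 and 12951 in controls, against 5195, 3966 and 10858 after TGF-β. TGF-β arrays 1 and 2 lay below every control, and TGF-β array 3 lay among the controls, so the groups overlapped. Taken by replicate number, the signal was lower with TGF-β in 3 of 3 pairs, as it was for 10.6% of expressed miRNAs with a signal on every array. The mean was 10513 ± 2404 (SD, n = 3) in controls and 6673 ± 3676 with TGF-β, a ratio of 0.635 and a log2 change of -0.77 (SE 0.37, 95% interval -1.62 to 0.08, limma adjusted p = 0.72; 0.21 with the replicate number as a block). Leaving out single arrays moved this change between -1.23 (without TGF-β array 3) and -0.46 (without TGF-β array 2). By its log2 change it was the fourth lowest of the 323 expressed miRNAs, and it was the only member with a ratio below 0.67, the study's threshold for a fall, which 2.79% of the expressed miRNAs passed. Before scaling, its ratio was 0.916.

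The scaled signal of miR-4454, the brightest probe, was 21872, 15459 and 24681 in controls, against 10898, 9494 and 23582 after TGF-β. The pattern was that of miR-7975, with TGF-β array 3 inside the control range and a lower signal in 3 of 3 pairs. The mean was 20671 ± 4727 in controls and 14658 ± 7760 with TGF-β (SD, n = 3), a ratio of 0.709 and a log2 change of -0.59 (SE 0.36, 95% interval -1.41 to 0.23, limma adjusted p = 0.88). Leaving out single arrays gave -1.04 (without TGF-β array 3) to -0.34 (without TGF-β array 2). Before scaling the ratio was 1.03.

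MiR-7977 had scaled signals of 2643, 1979 and 3547 in controls, against 1520, 1312 and 3438 after TGF-β, a ratio of 0.767 and a log2 change of -0.48 (SE 0.38). MiR-1260a had 178, 151 and 249 in controls, against 130, 118 and 198 after TGF-β, a ratio of 0.770 and a log2 change of -0.38 (SE 0.27). MiR-1260b had 697, 588 and 793 in controls, against 496, 455 and 808 after TGF-β, a ratio of 0.847 and a log2 change of -0.28 (SE 0.26). In each of these, TGF-β arrays 1 and 2 were the lowest of the 6 arrays, and for miR-1260b TGF-β array 3 was the highest. By replicate number, the signal was lower with TGF-β in 3 of 3 pairs for miR-7977 and miR-1260a and in 2 of 3 for miR-1260b. Before scaling, the ratios were 1.12, 1.20 and 1.28 for miR-7977, miR-1260a and miR-1260b. Limma adjusted p-values were 0.99, 0.97 and 0.99 in the same order.

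General array brightness moved with these values. Control array 2, TGF-β array 1 and TGF-β array 2 had the highest medians of the common probes, and these 3 arrays also had the 3 lowest scaled signals of each of the 5 members sharing a 3′ end. The direction of the difference turned with scaling for miR-4454, miR-7977, miR-1260a and miR-1260b, whose unscaled signals were higher with TGF-β, and not for miR-7975. Without TGF-β array 3, all 5 had a ratio below 0.67 and their median log2 change was -0.95, with no member past the adjusted p (lowest 0.211). The same median was -0.23 when TGF-β array 2 was left out, -0.27 when control array 3 was, and -0.33 when TGF-β array 1 was. It thus moved by single arrays in both directions from -0.48. Without TGF-β array 3, 41 of 339 expressed miRNAs had an unadjusted limma p under 0.05, against 21 of 323 with all arrays. The share of expressed miRNAs with a ratio below 0.67 in that setting is not given. The slide code in the name of each deposited scan put TGF-β arrays 2 and 3 on a second chip. The labels do not name a chip. On the chip that held the controls and TGF-β array 1, the median log2 change of the 5 was -0.87. The part of array brightness in the scaled differences was not tested.

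MiR-1246, linked to U2 snRNA, was the member with the highest ratio. Its scaled signal was 46.1, 50.2 and 34.0 in controls, against 80.9, 69.1 and 42.5 after TGF-β. TGF-β arrays 1 and 2 lay above every control, and TGF-β array 3 lay within the control range. By replicate number the signal was higher with TGF-β in 3 of 3 pairs, as it was for 14.3% of expressed miRNAs. The mean was 43.4 ± 8.39 in controls and 64.2 ± 19.6 with TGF-β (SD, n = 3), a ratio of 1.48 and a log2 change of 0.53 (SE 0.28, 95% interval -0.12 to 1.18, limma adjusted p = 0.79). Leaving out single arrays gave 0.33 (without TGF-β array 1) to 0.76 (without TGF-β array 3). No member had a ratio above 1.5, which 4.64% of the expressed miRNAs passed. The 3 arrays of highest general brightness also had its 3 highest scaled signals, the opposite of the order in the members with the shared 3′ end.

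The members linked to rRNA moved less. The scaled signal of miR-3648 was 119.3, 119.5 and 103.7 in controls, against 130.2, 132.9 and 129.3 after TGF-β. It was the only member whose groups did not overlap, with every TGF-β array above every control. Non-overlap toward higher values was found for 7.12% of the expressed miRNAs, and for 9.91% in either direction. Before scaling, the groups overlapped for all 9 members, against 6.19% of the expressed miRNAs without overlap toward higher values and 0% toward lower ones. The means were 114 ± 9.06 and 131 ± 1.89 (SD, n = 3), a ratio of 1.15 and a log2 change of 0.20 (SE 0.17, limma adjusted p = 0.99; 2-sided exact permutation p = 0.10, the smallest p that 3 arrays against 3 allow). In the authors' normalized values the groups overlapped for all 9 members, and the ratio of miR-3648 was 0.954.

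MiR-6724-5p had scaled signals of 52.9, 49.4 and 41.5 in controls, against 51.1, 50.8 and 43.8 after TGF-β, a ratio of 1.01 and a log2 change of 0.02 (SE 0.19, 95% interval -0.41 to 0.46). MiR-663a had 57.1, 57.2 and 39.4 in controls, against 50.7, 57.8 and 47.7 after TGF-β, a ratio of 1.02 and a log2 change of 0.04 (SE 0.22, 95% interval -0.45 to 0.54). For both the groups overlapped, control array 3 was the lowest, and the sign of the change turned with the scaling. Their ratios in the authors' normalized values were 0.841 and 0.856.

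**Figure D4:**
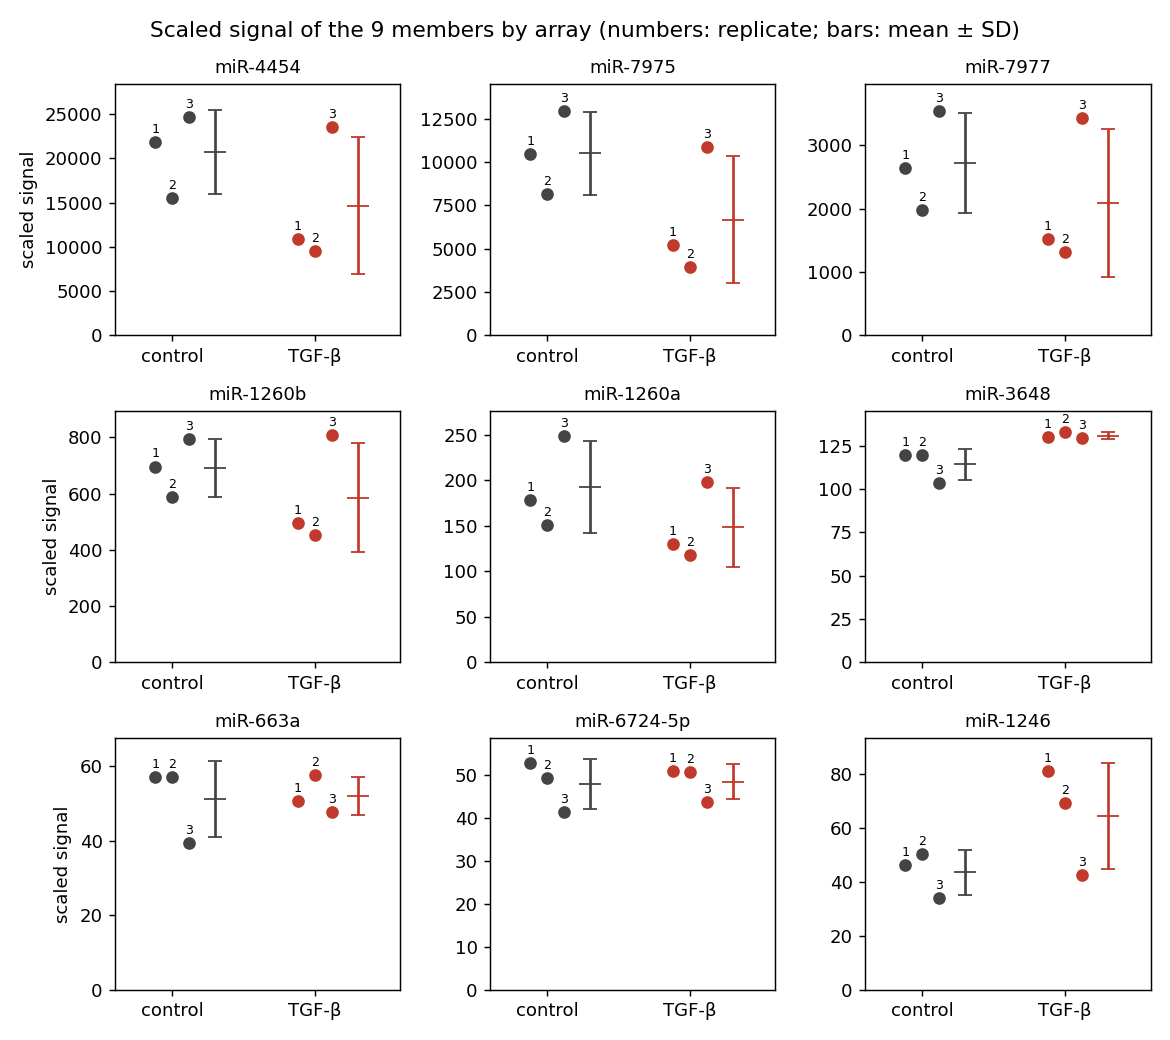
Scaled signal of each of the 9 members on the 6 arrays (common-probe median set to 25, linear axis from 0), with 1 point per array numbered by replicate and bars for the mean ± SD of each group. TGF-β arrays 1 and 2 lie below the controls for the 5 members sharing a 3′ end, while TGF-β array 3 does not, and miR-3648 is the only member without overlap.

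Scaling by 1 factor per array leaves the differences between members within that array as they were, while quantile normalization and another background do not. The median log2 signal of the 5 members sharing a 3′ end stood above that of the other 4 by 5.59, 5.21 and 6.46 in controls, against 4.56, 4.38 and 6.23 after TGF-β. The gap was smallest on TGF-β arrays 1 and 2, and that of TGF-β array 3 lay within the control range. Against the median change of the expressed miRNAs, the log2 change was -0.78 for miR-7975, -0.60 for miR-4454, -0.49 for miR-7977, -0.40 for miR-1260a and -0.29 for miR-1260b, and 0.52 for miR-1246, 0.19 for miR-3648, 0.03 for miR-663a and 0.01 for miR-6724-5p. After quantile normalization, which gives the probe of a given rank the same value on every array, the log2 changes of miR-7975 and miR-4454, which held the same ranks on every array, were -0.0055 and -0.0053. With local background that of miR-4454 was 0.79 above the median of the expressed miRNAs.

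**Figure D5:**
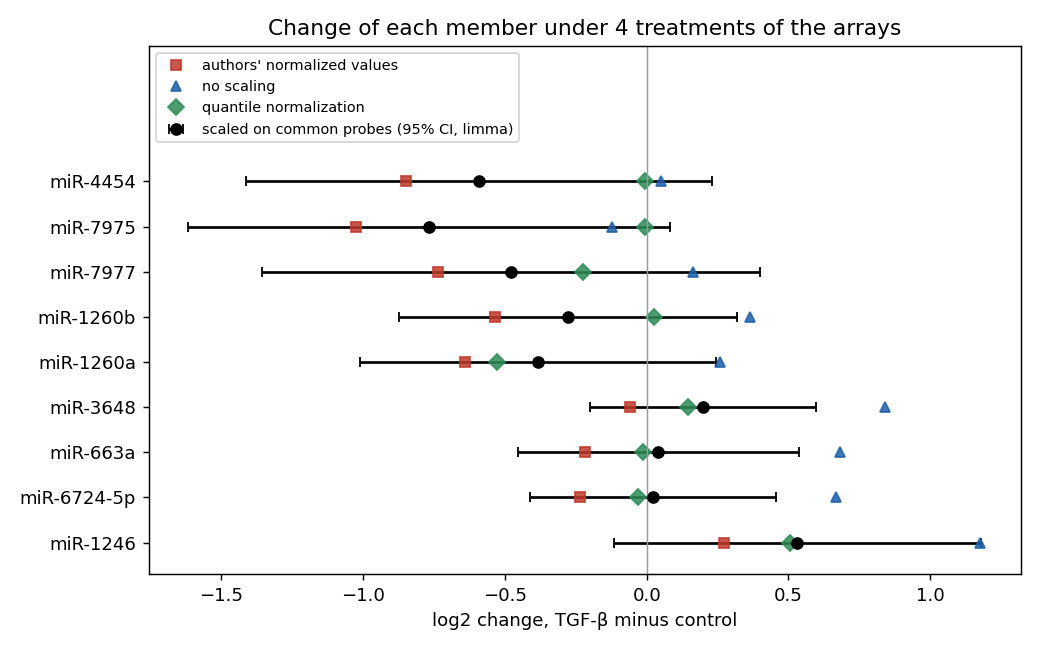
Log2 change of each member with TGF-β against control, as scaled on the common probes (black, with the 95% interval from limma), in the authors' normalized values (squares), without scaling (triangles) and after quantile normalization (diamonds). In black, the 5 members sharing a 3′ end lie between -0.77 and -0.28 and the other 4 between 0.02 and 0.53, every interval includes 0, and without scaling only miR-7975 lies below 0.

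Within the 2 close pairs the ratio of the signals was compared between groups, with p-values adjusted over the 2 pairs. MiR-1260a had 0.256, 0.257 and 0.314 of the signal of miR-1260b in controls, against 0.262, 0.259 and 0.245 after TGF-β. The groups overlapped, and the log2 difference was -0.11 (2-sided exact permutation test, p = 0.60, adjusted p = 0.60). MiR-4454 had 2.09, 1.90 and 1.91 times the signal of miR-7975 in controls, against 2.10, 2.39 and 2.17 times after TGF-β. Every TGF-β array lay above every control, with a log2 difference of 0.18 (2-sided exact permutation test, p = 0.10, adjusted p = 0.20). With 3 arrays against 3 the p could not have been smaller. The separation was narrow, with TGF-β array 1 at 2.098 and control array 1 at 2.095.

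The profile of each member over the 6 arrays was set against those of the 321 other expressed miRNAs with a signal on every array, as the root mean square difference of log2 signals centred on their means. For miR-7975 and miR-7977 the nearest profile was that of miR-4454 (0.11 and 0.096), for miR-4454 it was that of miR-7977 (0.096), and for miR-1260a that of miR-1260b (0.11). For miR-1260b the nearest was miR-187-5p (0.087) and miR-1260a was at position 3. The other 4 members each lay nearest to a miRNA outside the set: miR-1246 to miR-365a-3p/365b-3p (1 probe, 0.13), miR-3648 to miR-361-5p (0.055), miR-6724-5p to miR-3656 (0.076) and miR-663a to miR-92b-5p (0.065). The median distance to all miRNAs was 0.27 to 0.70 for the different members. Since all profiles share the 6 arrays and their scaling, these distances are a description.

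Other names from non-coding RNA genes were given by lists. Of 3 further names linked to rRNA, 2 were expressed. For miR-3687 every TGF-β array lay below every control, with a log2 change of -0.65 (adjusted p = 0.66 in limma), and for miR-6087 the groups overlapped, with 0.22 (adjusted p = 0.99). Of 10 names processed from snoRNA genes, 3 were expressed (miR-664b-3p, miR-3651 and miR-3607-3p), with a median log2 change of -0.02. The miR-320 family, linked to processing without Drosha, had 4 of 5 names expressed and a median log2 change of 0.45. For 1 of the 4 the groups did not overlap. The let-7 family with miR-98, made by the usual pathway, had 9 of 9 names expressed, a median rank of 41 and a median log2 change of 0.12. Of 163 mirtron-type 5p arms (miR-6726 to miR-6895), made by splicing, 43 were expressed, with a median log2 change of -0.06. None of these lists had a miRNA past the adjusted p, and the medians stand beside 0.01 for all expressed miRNAs.

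The identity of the cells was checked with marker miRNAs. All 5 epithelial names of the miR-200 family were expressed, 4 of them detected on all 6 arrays. The hepatocyte marker (0 of 1) and the stromal and muscle markers (0 of 5) were not detected on any array, and 4 of 5 blood markers were detected on none.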

How the data were processed

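The scanner intensity of each spot was deposited by the authors on a linear scale as a median over pixels, without normalization (3D-Gene scanner and Extraction software, Toray; software version not given in the sources used here). The authors also deposited normalized intensity values with a median of 25, used as an alternative. RNA was extracted with the miRNeasy kit and labelled with Cy5. From the scanner intensity, the mean of 229 blank spots was subtracted, and a probe was detected above 2 SD of the blanks. Signals were scaled to a median of 25 over the 292 probes detected on all 6 arrays. Undetected signals took the lowest value detected on the same array, and log2 was taken. Flagged spots were missing, and no member was flagged. Blank means ranged from 29.5 to 82.3 and detected probes from 327 to 464 per array. The number of arrays limits the precision.

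Groups and replicate numbers came from the labels. The 323 expressed miRNAs were compared with limma 3.58.1 in R 4.3.3 (no block, Benjamini-Hochberg, threshold 0.05), and single values by 2-sided exact permutation. On simulated signals of 322 miRNAs for this comparison, 60 of them changed, 65.7% of 2-fold and 2.83% of 1.5-fold changes were called (20 runs). These shares hold for that number of changed miRNAs, and the number that changed in these data is not known. Deviations from the group means were correlated between arrays with the same number (0.12, 0.24 and 0.33 across 322 miRNAs). Other matchings of the arrays were not compared, so these values do not show that a number marks a pair. The numbers served as pairs only for the replicate block and for the counts by replicate number. The labels do not say what a number marks. Array correlations were 0.945 to 0.985, so no array was a copy. Named miRNAs are the 9 members, the nearest profile of each, the brightest probe, and those of small counts, which, like miR-21-5p and the members of short lists, were chosen after their values were seen. Members, lists and tests were chosen with earlier results of these data known. Alternatives were other backgrounds, scalings, filters and eBayes settings, the methods' t-test, a block for replicate or chip, the arrays of chip 1 only, and omission of single arrays.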

Additional observations from a re-analysis of the deposited data

How the results depend on the processing

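Under none of 24 alternatives did a member pass the adjusted p (lowest 0.206, with the replicate number as a block). The replicate block changed no other call and left 0 of 323 expressed miRNAs past it. That count was 3 with local background (miR-106a-5p, miR-29a-3p and miR-16-5p), 1 with the methods' t-test (miR-4521) and 0 to 1 leaving out single arrays (miR-629-5p, without TGF-β array 3). Of 213 member values under alternatives, 23 changed direction. Without scaling, log2 changes were 0.26 for miR-1260a, 0.37 for miR-1260b, 0.051 for miR-4454 and 0.16 for miR-7977. With the authors' values they were -0.060 for miR-3648, -0.24 for miR-6724-5p and -0.22 for miR-663a. With scaling on the detected probes of each array they were -0.017, -0.19 and -0.17 for the same miRNAs. With scaling on the 75th percentile they were -0.091 for miR-6724-5p and -0.074 for miR-663a. With quantile normalization, which holds the brightest probes at fixed values, they were 0.025 for miR-1260b, -0.031 for miR-6724-5p and -0.014 for miR-663a. Chip 1 alone gave -0.066 for miR-663a, and local background gave -0.19 for miR-663a and 1.43 for miR-4454. Leaving out single arrays gave -0.078 to 0.090 for miR-6724-5p and -0.14 to 0.15 for miR-663a.

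The number of members with a ratio below 0.67 was 4 with the authors' values or own detected probes, 2 with the 75th percentile, and 0 with local background, no scaling, normexp or quantile normalization. It was 0 to 5 leaving out single arrays: 5 without TGF-β array 3, 2 without control array 2, and 0 without control array 3, TGF-β array 1 or TGF-β array 2. The number above 1.5 was 2 with local background and 4 without scaling. It was 0 to 1 leaving out single arrays (1 without control array 1, control array 2 or TGF-β array 3). The number without overlap was 0 with the authors' values, no scaling, normexp, the 75th percentile or own detected probes. It was 1 to 7 leaving out single arrays (7 without TGF-β array 3). Groups of fewer arrays separate more easily. The shares of all expressed miRNAs past these ratios or without overlap under these alternatives are not given. These counts thus have no background and are no result about the members. The median change of all expressed miRNAs moved between alternatives as well, as listed below. Counts on chip 1 alone are left out, since TGF-β has 1 array there. The members' median log2 change was 0.37 without scaling. That of the expressed miRNAs was -0.27 with the authors' values, 0.044 with chip as a block, 0.039 with detection at 3 SD, 0.057 with the filter of detection on at least 1 array, 0.65 with local background, 0.66 without scaling, -0.021 with normexp, -0.10 with the 75th percentile, -0.20 with own detected probes, and -0.027 to 0.047 leaving out single arrays. Local background left 72 miRNAs and 6 members to test and exceeded the spot of miR-1260b on 4 of 6 arrays, so its values bound little. Single changes near the spread of 3 arrays are not resolved at this number of arrays.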
